A study of Mus musculus with 6 samples.

Results

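The genes described here are the chains of the major histocompatibility complex (MHC) class I and the genes that prepare and load their peptides, measured in the renal cortex of diabetic mice. They were chosen by name: every probe of the array named for H2-K1, H2-D1, H2-L, H2-Bl or a numbered H2-Q, H2-T or H2-M gene, and every probe of a list of 12 processing genes. This gave 67 probes under 41 gene names of 56605 probes under 37323 names on the array. The classical chains had 5 probes of 3 genes, the non-classical chains 43 probes of 27 genes and the processing genes 19 probes of 11 genes. Psme2, the 12th name of the processing list, was not analysed here.

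RNA came from male C57BL/6 mice, 3 wild-type (WT) samples and 3 samples from mice lacking the receptor of the complement fragment C3a (C3aR-/-). Mice of both genotypes were 8 weeks old when a diet with 60% of its calories from fat began. After 4 weeks on it they received streptozotocin, which kills pancreatic beta cells, at 60 mg/kg on 3 days, and they were killed 26 weeks after streptozotocin. From each sample 0.2 µg of RNA was labelled with Cy3 and put on a 1-colour array, so the comparison is of genotypes within diabetes, and the non-diabetic groups were not analysed here. Levels are log2 signals minus the 75th percentile of the array, a difference is the C3aR-/- mean minus the WT mean, and its error is limma's standard error with 3 arrays in each group. Whether each replicate was its own animal is not stated, and the p-values cover the spread among these 6 samples only, which may be technical.

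Class I molecules show peptides from inside the cell to CD8 T cells and to receptors of natural killer (NK) cells. The proteasome, often with the interferon-inducible subunits Psmb8, Psmb9 and Psmb10, cuts proteins into peptides, which the transporter formed by Tap1 and Tap2 carries into the endoplasmic reticulum. There tapasin, the product of Tapbp, holds the empty chain and its partner beta-2-microglobulin (B2m) at the transporter until a peptide binds, and Nlrc5 is the transactivator that drives many of these genes.

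Of the 41 genes, 31 passed the filter on dim probes, and 28 of these were lower in C3aR-/- cortex. Their median difference was -0.30. Over all 22741 genes tested, 43.4% were lower and the median difference was 0.026. No member passed at an adjusted p under 0.05, where the smallest adjusted p of a member was 0.931 (limma), and the background of genes called over the whole table was 0%. Without adjustment, 2 of 31 members, Tap2 and H2-T9, had a limma p under 0.05, both lower. Over all genes tested the share at such a p was 4.89%, with 2.68% lower and 2.21% higher. The groups did not overlap for Tap2, lower in C3aR-/- (background 4.19%), and for H2-T3, higher in C3aR-/- (background 5.65%). In bulk cortex, fewer cells of a type and less RNA per cell cannot be told apart.

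**Figure D1:**
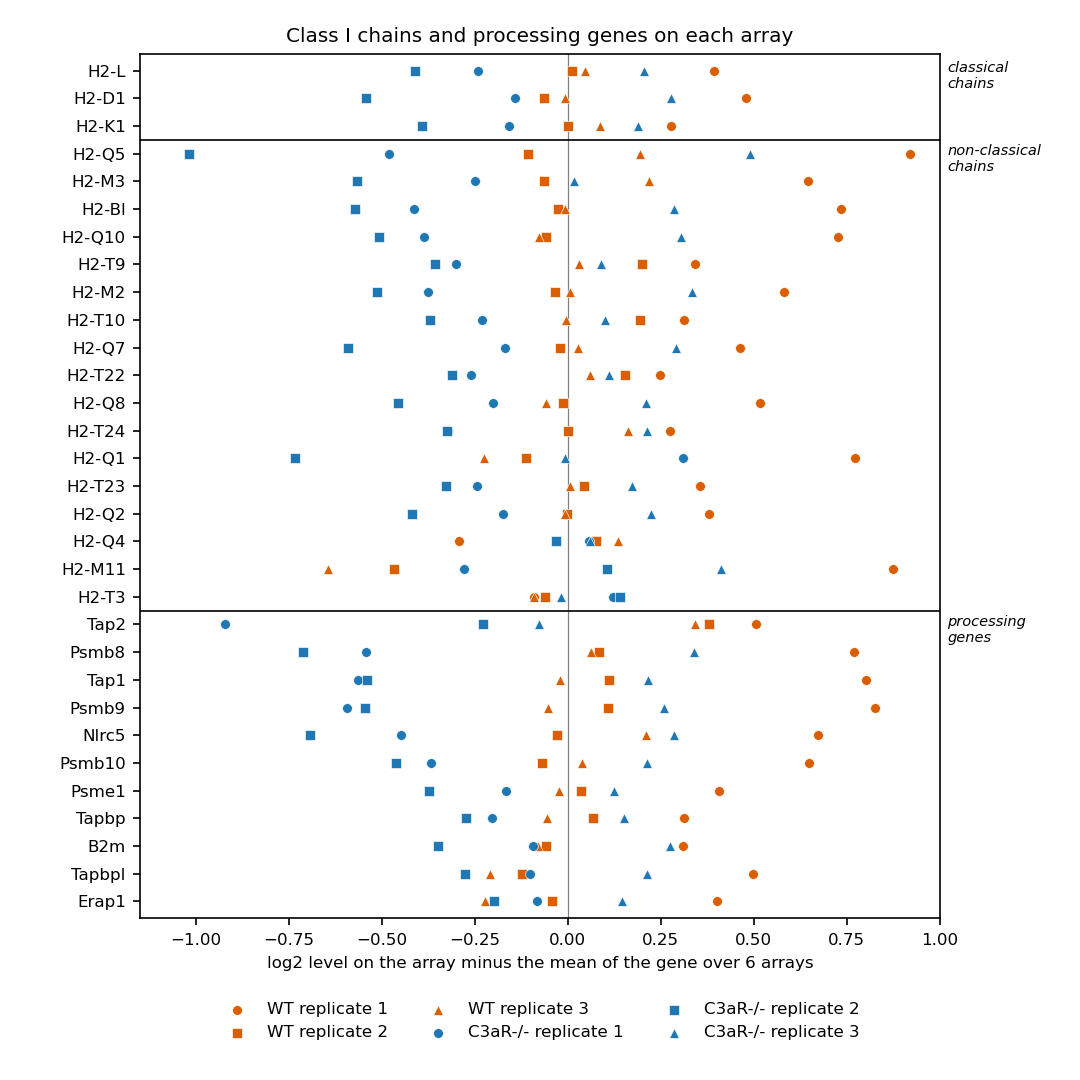
Each point is 1 array, plotted as the log2 level of a gene minus its mean over the 6 arrays, for the 31 genes tested, in the order classical chains, non-classical chains and processing genes. WT replicate 1 was the highest array for 29 of the 31 genes and C3aR-/- replicate 2 the lowest for 24.

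The quality of the arrays and the check of the genotype bear on every value here. Between 58.6% and 63.0% of probes were well above background, no probe was saturated, and arrays correlated at 0.980 to 0.994. C3ar1, the targeted gene, read -2.96, -3.86 and -3.62 in WT and -4.10, -4.95 and -4.69 in C3aR-/-, a difference of -1.10 ± 0.30 that did not pass adjustment over all genes (limma adjusted p = 0.931). It was -0.39 with normexp background correction and -0.65 without WT replicate 1 and C3aR-/- replicate 2. Whether its probe lies inside the deleted stretch is not stated, so it checks the labels in part. The first principal component, with 43.1% of the variance, had WT replicate 1 at one end and C3aR-/- replicate 2 at the other. All arrays were on 1 slide in 1 scan. WT replicates 2 and 3 with C3aR-/- replicates 1 and 2 lay in row 1 of the slide, and WT replicate 1 with C3aR-/- replicate 3 in row 2. Proximal tubule markers, which define the cortex, read at summed signals of 743 to 1331 times the 75th percentile in WT and 1148 to 1695 times in C3aR-/-.

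The classical chains were lower by a similar amount, and none passed the test. H2-K1 encodes one of the chains that present peptides to CD8 T cells in C57BL/6 mice. It read 8.06, 7.78 and 7.87 in WT and 7.62, 7.39 and 7.97 in C3aR-/-. C3aR-/- replicates 1 and 2 lay below every WT array, and C3aR-/- replicate 3 lay above WT replicates 2 and 3. The difference was -0.24 ± 0.17, or 84.5% of the WT level with a 95% interval of 63.5% to 113% (limma, unadjusted p = 0.20). H2-D1, the other main presenting chain, read 6.86, 6.31 and 6.37 in WT and 6.24, 5.83 and 6.66 in C3aR-/-. Its arrays fell in the same order, and the difference was -0.27 ± 0.25, or 82.8% of the WT level (54.8% to 125%).

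The probe named H2-L read 6.29, 5.91 and 5.95 in WT and 5.66, 5.49 and 6.11 in C3aR-/-, a difference of -0.30 ± 0.19. The b haplotype that C57BL/6 mice carry has no H2-L gene. In the array's mm9 coordinates this probe lies at chr17:35403191-35403250 and the H2-D1 probe at chr17:35403886-35403945. Its signal is thus not a reading of H2-L, and which chain it reads was not tested. The counts keep it under its array name, so they may count H2-D1 or another chain more than once. The 3 classical names had differences of -0.30 to -0.24, with a median of -0.27.

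Class I chains are close copies of each other, and some probes share sequence. Among the 48 class I chain probes, 5 pairs, made of 6 probes with 6 gene names, shared a run of at least 18 bases or matched over at least 80% of an overlap of at least 36 bases. A run of 29 bases was held by 3 probes of the array, those of H2-L, H2-T23 and the second H2-K1 probe. The stretches below show how little separates the H2-L probe from those of H2-T23 and H2-Q8, and a late pair from H2-Q10 and H2-Bl. Capitals mark the bases that differ within each pair, and every stretch is 30 of the 60 bases of a probe.
Run in 3 probes: tggagctgtggtggcttttgtgatgaaga
H2-L probe: gctgtggtggcttttgtgatgaagagAagg
H2-T23 probe: gctgtggtggcttttgtgatgaagagGagg
H2-L probe, earlier stretch: AtggccatcattggagctgtggtggCtttt
H2-Q8 probe: TtggccatcattggagctgtggtggAtttt
H2-Q10 probe: aGAataagaatctgGatgtgaacttTattg
H2-Bl probe: aACataagaatctgAatgtgaacttGattg
The H2-L and H2-T23 probes matched at 48 of 54 overlapping bases and the H2-L and H2-Q8 probes at 32 of 37. The printed probes of H2-Q10 and H2-Bl matched at 49 of 58 bases, and neither is the probe used for its gene. H2-L, H2-T23 and H2-Q8 are read here through probes of these pairs, so which chain those signals come from is uncertain. Probes were compared only with other probes, not with the transcripts of other class I genes. A chain probe outside these pairs is thus not shown to read its named gene alone. The probe used for H2-Q2 shared an unbroken run of 35 bases with a probe of C920025E04Rik, a name outside the rule, and matched it at 45 of 50 overlapping bases. The probe used for H2-Q7 shared a run of 19 bases with a probe of H2-K2.

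Promoters of classical class I genes are known for a set of short elements, which were searched for in the start regions. The sequences of 4 windows are shown, chosen because each holds a match to every one of these elements, which other windows of the members do not all do. Whether these elements bear on the levels of the genes was not tested. Each is the 200 bases before a RefSeq transcription start, GRCm38.p6, written 5′ to 3′ on the gene's own strand, which is the minus strand for H2-K1 and the plus strand for the others. H2-K1 has 2 starts, and the window of the one further upstream is shown. Capitals mark matches, on either strand, to an interferon-stimulated response element core (GAAANNGAA, or its other end GAANNGAAA), the CCAAT box (ATTGG), the CRE-type core (TGACG) and an NF-kB site (GGGACTTTC or GGGATTCCC).
H2-K1 chr17:34000348-34000547: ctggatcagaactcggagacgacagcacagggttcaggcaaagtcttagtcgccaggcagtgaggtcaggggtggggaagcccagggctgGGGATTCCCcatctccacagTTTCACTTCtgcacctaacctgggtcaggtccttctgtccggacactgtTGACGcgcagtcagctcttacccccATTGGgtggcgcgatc
H2-D1 chr17:35262894-35263093: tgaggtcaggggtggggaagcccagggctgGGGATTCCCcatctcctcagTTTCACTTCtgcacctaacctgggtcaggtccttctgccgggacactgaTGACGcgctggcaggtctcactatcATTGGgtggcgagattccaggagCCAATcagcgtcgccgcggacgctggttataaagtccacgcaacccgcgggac
H2-Q7 chr17:35438955-35439154: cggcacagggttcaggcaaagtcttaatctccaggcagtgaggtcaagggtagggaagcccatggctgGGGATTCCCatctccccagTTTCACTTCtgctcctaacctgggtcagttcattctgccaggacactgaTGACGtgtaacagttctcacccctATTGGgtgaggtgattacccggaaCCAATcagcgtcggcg
B2m chr2:122147487-122147686: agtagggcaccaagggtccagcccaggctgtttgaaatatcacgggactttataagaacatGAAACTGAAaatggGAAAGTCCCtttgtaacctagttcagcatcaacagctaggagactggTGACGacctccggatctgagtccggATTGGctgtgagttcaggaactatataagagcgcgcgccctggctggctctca
No capital run in these 4 windows overlaps another. In H2-K1, H2-D1 and H2-Q7 the NF-kB match, the response element core, the CRE-type core and the CCAAT box follow each other in 1 order. B2m holds its response element core ahead of its NF-kB match, then the CRE-type core and the CCAAT box.

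Windows from 250 bases before to 50 after the start were found for 29 members, 20 of them tested, and 32851 windows were searched in all. The core GAAANNGAA was in 5 of the 20 tested members and 8.56% of all windows. Its other end GAANNGAAA, a motif added after the first search had been seen, was in 8 of 20 and 7.52% of windows. The CCAAT box was in 14 of 20 against 37.4% of windows, and the CRE-type core in 10 of 20 against 20.8%. Both counts take in Tap1 and Psmb9, whose windows overlap and hold the same sites. The NF-kB letters GGGATTCCC were in 3 of 20 and GGGACTTTC in 1 of 20, each in 0.353% of windows. Starts of 1 gene can give several windows, and a match is a description of letters and not a bound site.

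B2m encodes the light chain that every class I molecule needs at the surface. It read 7.17, 6.80 and 6.77 in WT and 6.76, 6.50 and 7.13 in C3aR-/-. The groups overlapped, with C3aR-/- replicate 3 next to the highest WT array. The difference was -0.11 ± 0.19, or 92.4% of the WT level (66.8% to 128%). A second, dimmer B2m probe, with levels of -0.56 to 0.28, gave -0.33 ± 0.24. The first probe's sign turned to 0.013 without WT replicate 1 and to 0.033 without C3aR-/- replicate 2.

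The non-classical chains have narrower roles than H2-K1 and H2-D1, such as binding 1 kind of peptide or meeting NK and gamma-delta T cells. Of 27 such genes, 17 were tested and 14 were lower. Differences ran from -0.67 to 0.16 around a median of -0.31. H2-T9 read 2.37, 2.23 and 2.06 in WT and 1.73, 1.68 and 2.12 in C3aR-/-. Only C3aR-/- replicate 3 reached into the WT range. The difference was -0.38 ± 0.16 (limma, unadjusted p = 0.049, adjusted p = 0.931), and it was -0.22 without WT replicate 1 and C3aR-/- replicate 2. In the fit of single probes the same probe had an unadjusted limma p of 0.051. It lies at chr17:36177171-36177230 and the H2-T22 probe at chr17:36175670-36175937 in mm9. Whether the H2-T9 probe also reads H2-T22 was not tested.

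H2-M3, which binds peptides that start with formyl-methionine as bacterial and mitochondrial ones do, read 0.84, 0.13 and 0.41 in WT and -0.056, -0.37 and 0.21 in C3aR-/-. C3aR-/- replicate 3 lay above WT replicate 2 and the other arrays kept apart by group. The difference was -0.53 ± 0.23, or 69.1% of the WT level (47.3% to 101%), and it was -0.19 without WT replicate 1 and C3aR-/- replicate 2.

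H2-T22 and H2-T10 are ligands of gamma-delta T cell receptors, and RefSeq lists the C57BL/6 H2-T10 as a transcribed pseudogene. H2-T22 read 3.78, 3.69 and 3.59 in WT and 3.27, 3.22 and 3.64 in C3aR-/-, a difference of -0.31 ± 0.14. H2-T10 read 1.97, 1.85 and 1.65 in WT and 1.43, 1.29 and 1.76 in C3aR-/-, a difference of -0.34 ± 0.16. In both genes C3aR-/- replicate 3 lay between WT replicates 2 and 3. H2-T24 read -2.40, -2.68 and -2.52 in WT and -3.0, -3.0 and -2.47 in C3aR-/-, a difference of -0.29 ± 0.18, -0.17 with normexp correction, and its second probe, not well above background on C3aR-/- replicates 2 and 3, gave -0.68 ± 0.33.

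H2-T3, a chain of the thymus leukaemia antigen family found on gut epithelium, had a difference of the opposite sign. Its WT arrays read -1.98, -1.95 and -1.98 and its C3aR-/- arrays -1.77, -1.75 and -1.91. Every C3aR-/- array was above every WT array, but the difference of 0.16 ± 0.094 did not pass the test (limma, unadjusted p = 0.13). The probe used is 1 of 4 named H2-T3 and the only one that passed the filter. It lies at chr17:36323526-36323585 in mm9. The H2-T3 probes on either side of it, at chr17:36323454-36323516 and chr17:36323613-36323966, were not well above background on any array. Whether the signal of the probe used comes from H2-T3 RNA is thus uncertain and was not tested.

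The remaining 11 tested non-classical genes had differences of -0.67 to 0.16, and none had an unadjusted limma p under 0.05. The lowest was H2-Q5, listed by RefSeq as a transcribed pseudogene, at -0.67 ± 0.43, with levels from 3.97 in WT replicate 1 to 2.03 in C3aR-/- replicate 2. H2-T23, the chain of Qa-1 that shows leader peptides of other class I chains to NK receptors, differed by -0.27 ± 0.17. H2-Q7, a chain of the Qa-2 antigen, differed by -0.31 ± 0.25 and H2-Q10, a secreted chain made mainly by liver, by -0.39 ± 0.30.

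The means of H2-Q4 and H2-M11 were not lower. H2-Q4 read 4.76, 5.13 and 5.19 in WT and 5.11, 5.02 and 5.11 in C3aR-/-, a difference of 0.055 ± 0.14, and here WT replicate 1 was the lowest array. H2-M11 differed by 0.16 ± 0.42 and was well above background on 1 WT array and 2 C3aR-/- arrays.

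The 10 genes that were not tested were all non-classical. H2-M10.1 to H2-M10.6, H2-M5, H2-M9 and H2-T18 were not well above background on any array, and H2-M1 was on 1 array. The H2-M10 genes are known from sensory neurons of the vomeronasal organ.

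Among the processing genes, all 11 on the array were tested and all 11 were lower in the mean, with a median of -0.41 and a range of -0.82 to -0.091. Tap2, a subunit of the peptide transporter, had the lowest difference of the members. It read 4.08, 3.96 and 3.92 in WT and 2.65, 3.35 and 3.50 in C3aR-/-. The WT arrays lay close together, every C3aR-/- array was below them, and C3aR-/- replicate 1 was the lowest. The difference was -0.82 ± 0.23, or 56.7% of the WT level with a 95% interval of 38.8% to 82.7% (limma, unadjusted p = 0.0099, adjusted p = 0.931). It was -0.86 without WT replicate 1 and C3aR-/- replicate 2, -0.94 within row 1 of the slide and -0.58 in row 2. The second Tap2 probe was not above background on any array.

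Tap1, the partner subunit, read 3.37, 2.68 and 2.55 in WT and 2.0, 2.03 and 2.78 in C3aR-/-. C3aR-/- replicates 1 and 2 were below every WT array and C3aR-/- replicate 3 was above WT replicates 2 and 3. The difference was -0.59 ± 0.30, or 66.3% of the WT level (40.2% to 109%), and a second probe gave -0.57 ± 0.35. Without WT replicate 1 and C3aR-/- replicate 2 it was -0.22.

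The immunoproteasome subunits replace the standard catalytic subunits after interferon exposure. Psmb8 read 4.08, 3.39 and 3.37 in WT and 2.77, 2.60 and 3.65 in C3aR-/-, a difference of -0.61 ± 0.33. Psmb9 read 3.80, 3.08 and 2.92 in WT and 2.38, 2.43 and 3.23 in C3aR-/-, a difference of -0.59 ± 0.32. The groups overlapped for both, through C3aR-/- replicate 3. Psmb10 read 5.67, 4.95 and 5.06 in WT and 4.65, 4.56 and 5.24 in C3aR-/-, a difference of -0.41 ± 0.26. The 3 genes had unadjusted limma p-values of 0.108, 0.111 and 0.159. Psmb9 and Tap1 face away from each other on opposite strands, and their RefSeq windows share 275 bases, chr17:34187306-34187580 in GRCm38.p6. The 1 CCAAT box and 1 CRE-type core found in each window are the same bases, read from opposite strands.

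The other proteasome genes had smaller differences. Of 16 other subunits and activators tested, 8 were lower, the median difference was 0.012 and the range was -0.095 to 0.11, with 0 at an unadjusted limma p under 0.05. Psmb7, a catalytic subunit that Psmb10 replaces, differed by -0.095 ± 0.091 and the activator Psme4 by 0.11 ± 0.12. Psme1, the interferon-inducible activator subunit of the member list, read 5.30, 4.93 and 4.87 in WT and 4.73, 4.52 and 5.02 in C3aR-/-, a difference of -0.28 ± 0.18. Psme2b, a related copy of Psme2 that the name rule does not take, differed by -0.18 ± 0.13.

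**Figure D2:**
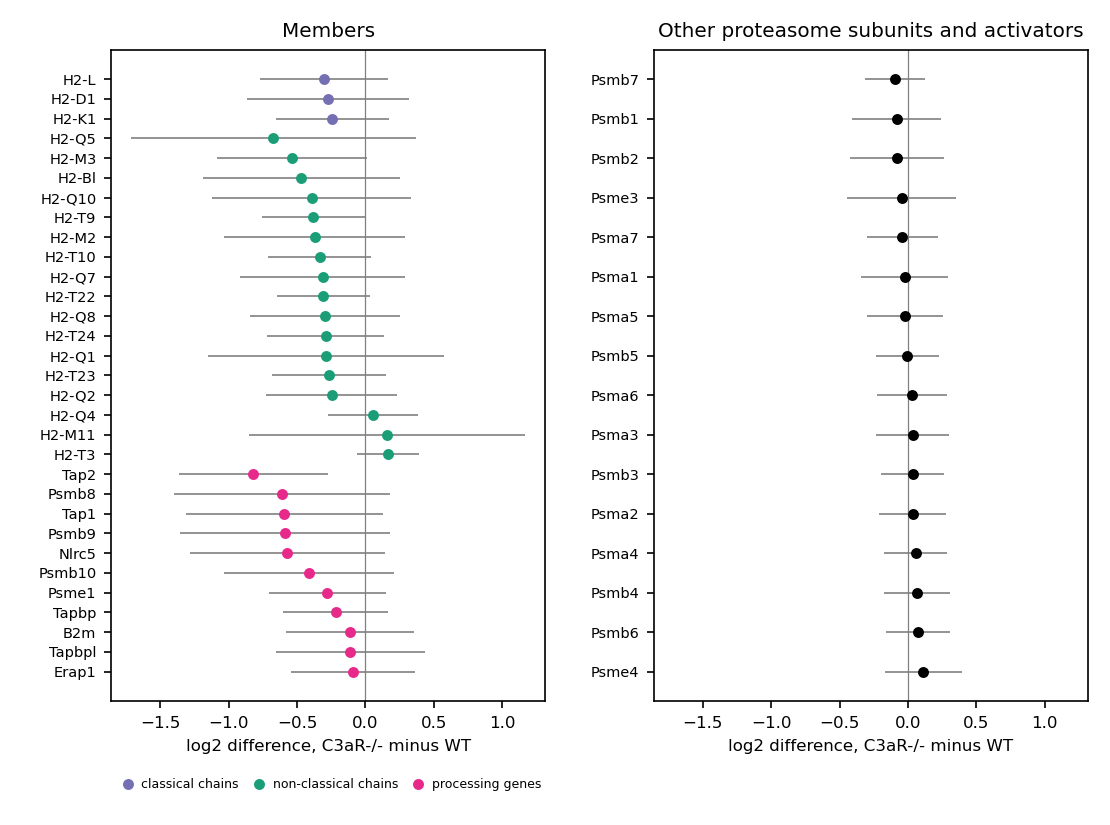
The left panel gives the log2 difference (C3aR-/- minus WT) of each of the 31 members with its 95% interval from limma, and the right panel the same for 16 other proteasome subunits and activators, on 1 axis scale. The interval of Tap2 (-1.36 to -0.27) and that of H2-T9 were the only member intervals below 0, and the other proteasome genes lay between -0.095 and 0.11.

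The loading and trimming genes had smaller differences. Tapbp read 5.60, 5.35 and 5.23 in WT and 5.08, 5.01 and 5.44 in C3aR-/-, a difference of -0.22 ± 0.16. Tapbpl, a tapasin-related peptide editor, read 1.16, 0.54 and 0.45 in WT and 0.56, 0.38 and 0.87 in C3aR-/-, a difference of -0.11 ± 0.23. Erap1, the aminopeptidase that trims peptides in the endoplasmic reticulum, read -0.43, -0.87 and -1.05 in WT and -0.91, -1.03 and -0.68 in C3aR-/-, a difference of -0.091 ± 0.19. For Tapbpl and Erap1 the sign turned without WT replicate 1, to differences of 0.11 and 0.087. The Tapbpl sign also turned without C3aR-/- replicate 2, to a very small positive value.

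Of 8 general chaperones of class I folding, 6 were lower with a median of -0.094 and 0 had an unadjusted limma p under 0.05. Pdia3, the disulfide isomerase of the loading complex, differed by -0.42 ± 0.23, with C3aR-/- replicate 1 the lowest array as for Tap2. Calr, the chaperone calreticulin, differed by -0.15 ± 0.10.

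Nlrc5 read 2.0, 1.30 and 1.54 in WT and 0.88, 0.63 and 1.61 in C3aR-/-. C3aR-/- replicates 1 and 2 were below every WT array. The difference was -0.57 ± 0.30, or 67.3% of the WT level (41.0% to 110%), and it was -0.17 without WT replicate 1 and C3aR-/- replicate 2. A second Nlrc5 probe, far dimmer, gave 0.18 ± 0.19. Its levels were -4.30 to -3.61, against 0.63 to 2.0 for the first. The first lies at chr8:97051105-97051164 and the second at chr8:97030478-97030624 in mm9.

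Of 9 genes of class I promoter factors, Ciita included, 6 were lower, the median was -0.013 and 0 had an unadjusted limma p under 0.05. Ciita, the class II transactivator, differed by -0.49 ± 0.22, and Nfyc, a subunit of the factor that binds the CCAAT box, by 0.20 ± 0.099. All 11 genes of interferon-gamma signalling were lower, beside 43.4% of all genes, with a median of -0.25. Of the 11, 1 had an unadjusted limma p under 0.05, beside 2.68% of all genes that were lower at such a p. Without WT replicate 1 and C3aR-/- replicate 2, 5 of the 11 were lower and the median was 0.015. The gene with an unadjusted p under 0.05 was Ifng, the cytokine itself. It read -2.19, -3.03 and -2.68 in WT and -4.01, -4.24 and -3.34 in C3aR-/-. The difference was -1.23 ± 0.30 with no overlap, beside 4.19% of all genes that were lower without overlap. Ifng was -0.61 with normexp correction and -0.82 without WT replicate 1 and C3aR-/- replicate 2. Irf8, an interferon-response factor of myeloid cells, differed by -0.39 ± 0.20.

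The probes of a gene mostly gave 1 direction. Of 46 member probes that passed the filter, 39 were lower. No such share was computed over all probes, and over all genes tested it was 43.4%. Of 12 tested genes with more than 1 such probe, H2-Bl, H2-Q10 and Nlrc5 had probes of both signs. Of the 4 H2-Q10 probes, those at chr17:35607907-35607966 and chr17:35610036-35610095 gave -0.39 ± 0.30 and -0.39 ± 0.23. Those at chr17:35611365-35611424 and chr17:35611449-35611508 gave 0.063 ± 0.25 and 0.015 ± 0.34 (mm9). The first of these is the probe whose stretch is printed beside that of H2-Bl. That H2-Bl probe, at chr17:36217134-36217193, gave 0.039 ± 0.20 at levels of -4.14 to -3.51. The probe used for H2-Bl has no position in the array's coordinates and gave -0.47 ± 0.30 at levels of 1.51 to 2.82. RefSeq lists H2-Bl as a transcribed pseudogene, and which transcript the probe used reads was not tested. The largest difference of a probe not used was that of the second H2-M2 probe, -0.92 ± 0.39 against -0.37 ± 0.27 for the one used.

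**Figure D3:**
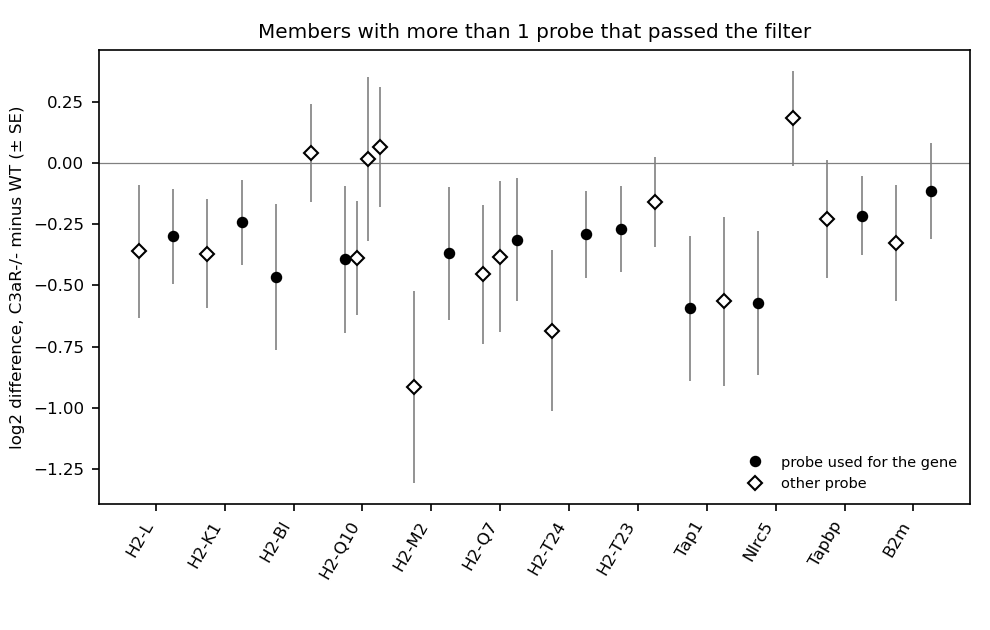
Log2 differences (C3aR-/- minus WT) with limma standard errors of every probe that passed the filter, for the 12 members with more than 1 such probe. Filled circles are the probes used for the gene and open diamonds the others, and the probes above 0 are 2 of H2-Q10 and 1 each of H2-Bl and Nlrc5.

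The members shared an order of arrays that was not the order of the groups. WT replicate 1 was the highest of the 6 arrays for 29 of 31 members, against 28% of all genes tested, and C3aR-/- replicate 2 the lowest for 24, against 20.8%. C3aR-/- replicate 3 stood above WT replicates 2 and 3 for 25 members, against 36.5% of genes. The median deviation of the members from their own means was 0.48 on WT replicate 1, -0.013 on WT replicate 2 and -0.0042 on WT replicate 3. On the C3aR-/- arrays it was -0.25, -0.41 and 0.21.

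The outermost arrays on the first principal component bear on every group of members. Without WT replicate 1 and C3aR-/- replicate 2, the medians were -0.028 for the classical chains, -0.040 for the non-classical chains and -0.062 for the processing genes, and 20 members were lower. Without WT replicate 1 alone they were -0.16, -0.16 and -0.19, and without C3aR-/- replicate 2 alone -0.11, -0.20 and -0.28. Without C3aR-/- replicate 3 they were -0.48, -0.47 and -0.62, and 17 members had an unadjusted limma p under 0.05, against 5.2% of all genes in that fit.

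The 2 arrays that stood high in their groups, WT replicate 1 and C3aR-/- replicate 3, were those of slide row 2. Within row 1, both C3aR-/- arrays were below both WT arrays for 26 members, against 13.4% of genes. In row 2, C3aR-/- replicate 3 was below WT replicate 1 for 29 members, against 49.2%, and 28 members were lower in both rows, against 24.2%. The medians were -0.32, -0.38 and -0.40 within row 1 and -0.19, -0.25 and -0.39 in row 2, for classical chains, non-classical chains and processing genes. With the row as a block, 18 members had an unadjusted limma p under 0.05, all lower, against 7.66% of genes in either direction and 4.29% lower, and 0 passed adjustment (background 0%). Tap1 had the smallest adjusted p in that fit, 0.480, with a difference of -0.60 in row 1 and -0.59 in row 2. Row 2 held 1 array of each genotype, so its spread was not measured.

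**Figure D4:**
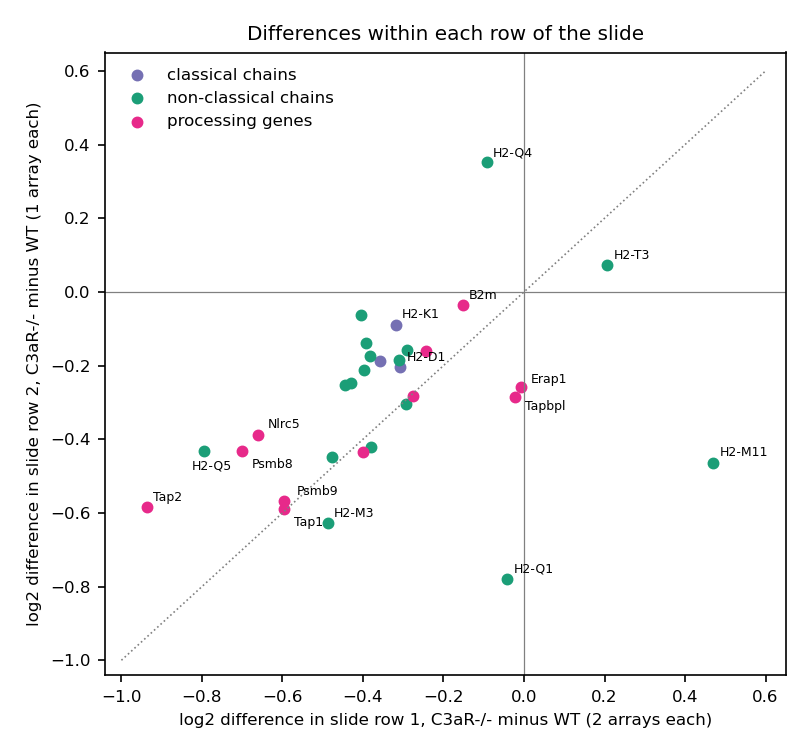
Each point is 1 of the 31 members, with the log2 difference (C3aR-/- minus WT) within slide row 1 (2 arrays of each genotype) on the horizontal axis and within row 2 (1 array of each) on the vertical axis, and the dotted line marks equal values. Tap1 (-0.60 and -0.59) lies on the line, Tap2 is the lowest in row 1 (-0.94), and 28 points lie below 0 on both axes.

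Among receptors of class I ligands, carried by immune cells, 9 of 10 tested genes were lower, with a median of -0.86, and 0 passed adjustment. Of these genes 4 had an unadjusted limma p under 0.05, all lower, beside 2.68% of all genes. The median was -0.24 with normexp correction, and 3 of the 10 were not well above background on all C3aR-/- arrays. Klrd1, the CD94 chain of the receptor that reads the H2-T23 product, read -2.02, -2.49 and -1.93 in WT and -3.02, -3.52 and -3.15 in C3aR-/-. The difference was -1.08 ± 0.20 (limma, adjusted p = 0.920). The groups did not overlap, beside 4.19% of all genes that were lower without overlap. Klrk1, the activating receptor NKG2D, differed by -0.90 ± 0.27. With normexp correction both were -0.55. Of 10 tested class I-like genes outside the H2 names, 7 were lower and the median was -0.23, with Procr at -0.56 ± 0.24 and Cd1d2 at -0.32 ± 0.10 (-0.13 with normexp correction). The median of these class I-like genes was -0.061 with normexp correction, and without WT replicate 1 and C3aR-/- replicate 2 it was -0.12, with 6 lower.

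Immune cell markers had lower means beside these genes, with 0 markers passing adjustment. All 10 T cell markers were lower (median -1.17, 9 at an unadjusted limma p under 0.05 beside 2.68% of all genes), and their summed signal was 5.29 to 8.37 times the 75th percentile in WT and 2.40 to 4.08 times in C3aR-/-. All 7 tested NK cell markers were lower (median -0.93, -0.19 with normexp correction, 2 of them not well above background on all C3aR-/- arrays), with sums of 1.83 to 2.60 and 1.20 to 1.61, and Ncr1 was not above background often enough to be tested. All 11 tested markers of macrophages and dendritic cells were lower (median -0.63, and -0.31 without WT replicate 1 and C3aR-/- replicate 2). Of these, 7 had an unadjusted limma p under 0.05, beside the same 2.68% of all genes. Their sums were 61.2 to 90.5 in WT and 39.4 to 55.3 in C3aR-/-, and Xcr1 was not tested. Of 5 tested B cell markers 4 were lower (median -0.23, -0.10 with normexp correction), with sums of 0.943 to 1.13 and 0.769 to 0.832, and Cd79a was not tested. The sums of the T cell, NK cell, B cell and myeloid lists did not overlap between the groups. Of all single genes tested, 4.19% were lower in C3aR-/- without overlap, and no such share was computed for sums. Without the marker of largest signal in each list, a setting chosen after the data were seen, the T cell and NK cell sums did not overlap either, while the B cell sums without Cd79b were 0.448 to 0.587 in WT and 0.486 to 0.50 in C3aR-/-, and the myeloid sums without Lyz2 were 30.5 to 47.4 and 21.8 to 31.5.

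Markers of other cells of the cortex were not lower as lists. All 12 proximal tubule markers were higher in C3aR-/- (median 0.36) and all 7 of the distal nephron (median 0.23), with 0 at an unadjusted limma p under 0.05. Without WT replicate 1 and C3aR-/- replicate 2, 9 of the 12 proximal tubule markers were lower (median -0.070), as were 3 of the 7 distal markers (median 0.035). Endothelial markers, from cells that carry much class I, were lower in 3 of 10 (median 0.12), with sums of 36.5 to 52.4 in WT and 36.3 to 56.3 in C3aR-/-. Podocyte markers were lower in 3 of 6 (median 0.033), liver markers in 3 of 5 (-0.10), fat markers in 2 of 4 (0.041) and adrenal markers in 0 of 3 (0.15). The part of these cell types in the class I differences was not tested.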

How the data were processed

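The arrays were read with Agilent Feature Extraction 10.7.1.1 on an mm9 grid, per the file headers. From the deposited intensity columns the processed signal, background-subtracted and not normalized between arrays, was taken, and for 1 alternative the mean and local background signals. The authors' deposited table of log2 values tracked each array's processed signal (r of at least 0.999, each column median 5.73). With its making not given in the sources used here, the table served as an alternative.

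Control and outlier spots were dropped (6 probes lost), and spots of a probe were averaged. Log2 signals were scaled to the array's 75th percentile. Probes well above background on at least 3 arrays were kept, and the probe with the highest mean stood for its gene. Differences were tested with limma 3.58.1 in R 4.3.3 (lmFit, eBayes), with Benjamini-Hochberg adjustment over 22741 genes. The fit was tested on simulated data. Single probes of 1 gene were fitted over 34778 probes.

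The members and all gene lists were chosen with earlier results of these data known. Values were given for H2-K1, H2-D1 and the processing genes, for the 6 non-classical genes of smallest p, and for the 2 genes of smallest p of each pathway list. H2-L and a few others were named after their values were seen. Summed signals are sums of unlogged values relative to the 75th percentile. The slide row came from the array's position in the headers. Intervals are at 95%. The number of arrays limits the precision. The result of 1 motif search is not reported here.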

Additional observations from a re-analysis of the deposited data

How the results depend on the processing

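No gene of the whole table and no member passed an adjusted p under 0.05 in limma under any setting run, so the calls did not move. Leaving out each array in turn, the medians ranged from -0.48 to -0.11 for the classical chains, from -0.47 to -0.16 for the non-classical chains and from -0.62 to -0.19 for the processing genes. The processing median moved by more than the spread between arrays in 1 setting, without WT replicate 1 and C3aR-/- replicate 2 together. It was -0.062 there, beside -0.028 for the classical and -0.040 for the non-classical chains. The spread for the classical and non-classical chains, 0.27 and 0.30, was about as large as their main medians, -0.27 and -0.31. Even a fall to nearly 0 could thus hardly count as a move for them. WT replicate 1 and C3aR-/- replicate 2 are the outermost arrays of the first principal component and of opposite genotype. Their removal thus takes away, by construction, the arrays furthest apart along it, at 50.5 and -43.1. The arrays left lay at -11.4 and 0.80 in WT and at -4.54 and 7.77 in C3aR-/-. The group difference along this component thus did not keep its direction. How far this bears on the medians of the members was not tested. Members with an unadjusted p under 0.05 numbered 2 (4.89% of all genes), and 18 with the slide row as a block (7.66%), 16 within row 1 (4.94%) and 4 with normexp background correction (4.44%) or with trend and robust variances (4.22%). Leaving out 1 array, they numbered from 1 to 17, beside 3.37% to 6.7% of all genes. Deviations of same-numbered arrays correlated at 0.13, 0.41 and -0.093, and those of arrays with different numbers at -0.37 to 0.35. The value of 0.41 was the highest of all pairs. With so few arrays these correlations cannot settle whether the samples were paired, and the main fit used no pairing. With the replicate block, 0 members were called and 2 had an unadjusted p under 0.05.

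Of 619 member values under other settings, 28 turned sign. With array weights these were B2m at 0.0063, Erap1 at 0.019, H2-Q1 at 0.16, H2-Q4 at -0.0090 and Tapbpl at 0.051. Within row 1 H2-Q4 was -0.093, and in row 2 H2-M11 was -0.46. When each array was left out in turn, B2m ranged from -0.28 to 0.033, Erap1 from -0.23 to 0.087, Tapbpl from -0.24 to 0.11, H2-Q1 from -0.52 to 0.026, H2-Q4 from -0.078 to 0.14 and H2-M11 from -0.12 to 0.64. Without WT replicate 1 and C3aR-/- replicate 2, B2m was 0.16, Erap1 0.16, H2-D1 0.10, H2-Q1 0.32, H2-Q10 0.027, H2-Q2 0.029, H2-Q4 -0.048, H2-Q7 0.058, H2-Q8 0.041 and Tapbpl 0.22. Single probes of the other sign were those of H2-Q10 (0.063 and 0.015), H2-Bl (0.039) and Nlrc5 (0.18). The cause of these turns was not tested.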
